A study of Mus musculus with 8 samples.

Results

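Nuclear-encoded OXPHOS genes were followed through cDNA libraries of liver mitochondria from 12-week-old (12 W) and 65-week-old (65 W) mice. The members were all protein-coding genes whose symbol starts with Nduf, Uqcr, Cox4, Cox5, Cox6, Cox7, Cox8, Atp5 or Sdh, together with Cyc1 and Cycs. Of 99 annotated genes that fit this description, 85 had at least 1 count. They formed 85 of the 6573 features left after transcripts were summed per gene, and held 133 of the 8688 transcripts of the table. All animals were wild-type C57BL/6N mice, and each age group had 4 libraries, named here 12W-1 to 12W-4 and 65W-1 to 65W-4. The labels call these biological replicates. The mitochondria were treated with a nuclease and purified on a sucrose gradient before RNA extraction, so that the RNA measured is what this preparation retained and not the RNA of the whole liver. The study describes the 12 W mice as female and does not give the sex of the 65 W mice, so sex and age cannot be told apart. Sequencing was done on the Nanopore platform with barcoded PCR-cDNA libraries, and the values are counts of reads per transcript. The study describes pooling of all barcoded samples, and its methods do not give the number of flow cells.

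Oxidative phosphorylation is carried out by the electron-transferring complexes I to IV and by the ATP synthase, complex V, in the inner mitochondrial membrane. Complexes I, III, IV and V are built from subunits of both genomes, with catalytic or proton-translocating membrane subunits from mitochondrial DNA and the remaining subunits from nuclear genes, whereas complex II is entirely nuclear-encoded. Nuclear-encoded subunits are translated in the cytosol, partly at the surface of the outer membrane, and imported into the organelle. Liver relies on this system for ATP and for the oxidation of fatty acids.

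Several of the members most often counted encode small proteins that enter the organelle by different routes. Cox8a, Atp5g3 and Cox7c carry a cleaved targeting sequence at their amino terminus, and Cox6b1, a subunit on the intermembrane-space side, does not. The first 75 coding bases of their most counted transcripts, taken from the GENCODE annotation on GRCm38, are shown with the start codon in capitals so that these starts can be compared. The genes lie at chr19:7215153-7217616, chr2:73908447-73911326, chr13:86044816-86046904 and chr7:30616861-30626151, all on the minus strand, and the bases are exonic.
Cox8a: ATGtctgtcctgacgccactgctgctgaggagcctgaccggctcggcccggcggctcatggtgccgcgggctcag
Atp5g3: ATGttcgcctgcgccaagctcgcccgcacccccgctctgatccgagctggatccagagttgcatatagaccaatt
Cox7c: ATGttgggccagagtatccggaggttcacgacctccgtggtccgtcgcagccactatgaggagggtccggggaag
Cox6b1: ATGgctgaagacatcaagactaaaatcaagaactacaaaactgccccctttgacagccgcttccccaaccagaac
The coding lengths of these transcripts are 207 nt for Cox8a, 423 nt for Atp5g3, 189 nt for Cox7c and 258 nt for Cox6b1, within transcripts of 550, 714, 540 and 618 nt.

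Promoters of respiratory chain genes are known for binding sites of the factor NRF1. A RefSeq promoter on GRCm38.p6, reaching from 250 bases before to 50 bases after the start, was found for 71 of the 85 members. The NRF1 motif, which reads GCGCA and GCGC with any base between them, was searched on both strands. It was present in 20 of these 71 promoters, or 28.2%, and in 6.60% of 17491 promoters of protein-coding genes. The ETS motif CCGGAAG was present in 16 members, or 22.5%, and in 11.9% of all promoters. The YY1 motif AAGATGGCG was present in 7 members, or 9.86%, against 1.94% of all, and the TATA motif TATAAA in 6 members, or 8.45%, against 13.3% of all. The ETS and YY1 letters can share bases. Members and the full set were searched in the same way, and a match is a description of the letters and not of binding. For 11 members the 60-base window around an NRF1 match lay before the RefSeq start, and in 7 of these it touched an exon of the GENCODE annotation. The windows of the 3 most counted of the others, which show the match outside any annotated exon, are given on the minus strand with the match in capitals. Atp5h is a subunit of the peripheral stalk of the ATP synthase, and Ndufb4 and Ndufs5 are supernumerary subunits of complex I with 11 and 7 counts in all.
Atp5h at chr11:115420026-115420085: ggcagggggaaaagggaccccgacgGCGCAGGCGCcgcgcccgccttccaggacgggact
Ndufb4 at chr16:37654525-37654584: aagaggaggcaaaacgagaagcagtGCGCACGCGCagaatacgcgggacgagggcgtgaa
Ndufs5 at chr4:123718250-123718309: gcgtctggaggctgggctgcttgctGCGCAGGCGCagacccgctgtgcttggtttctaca
The match begins 141 bases before the RefSeq start of Atp5h, 191 bases before that of Ndufb4 and 98 bases before that of Ndufs5.

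Library depth differed between the age groups. Total counts were between 104554 and 191092 at 12 W and between 12630 and 105252 at 65 W, where 65W-1 with 12630 and 65W-3 with 22651 were the shallow libraries. Mitochondria-encoded mRNAs took 74.8 to 82.4% of the counts of a library. Nuclear transcripts, without 17 rows that resemble mitochondria-encoded ones, took 7.15 to 14.7%, in all 62085 counts at 12 W and 22191 at 65 W. A single nuclear gene, Lars2, the mitochondrial leucyl-tRNA synthetase, held 112 to 366 of every 1000 nuclear counts, most in 65W-1, so values relative to nuclear counts depend on it. The labels name liver mitochondria and no cell type. Hepatocyte markers were present, with 10 of 10 genes on record and 126 to 167 counts per 1000 nuclear counts at 12 W against 104 to 140 at 65 W. Of the Kupffer and immune markers 9 of 10 were on record with 1.35 to 2.77 against 1.14 to 3.31 per 1000, and Ptprc was at 0. Stellate markers had 0.243 to 0.621 against 0 to 1.504 per 1000 with 7 of 7 on record. Endothelial markers had 4 of 5 on record and 18 counts in all, with Pecam1 at 0, cholangiocyte markers 2 of 4 and 4 counts, with Epcam and Sox9 at 0, and adipocyte markers 0 counts. Erythroid markers had 61 counts at 12 W, of which 46 lay in 12W-1, and 8 at 65 W. The sex-linked genes listed as markers, Xist, Ddx3y, Uty, Kdm5d and Eif2s3y, had 0 counts. The part of these cells in the results was not tested.

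The 85 members together had 1182 counts, 849 at 12 W and 333 at 65 W. Only 49 members reached 10 counts over the 8 libraries, 22 had 4 to 9 and 14 had 1 to 3. A count of the member was found in both age groups for 73 genes, at 12 W alone for 11 and at 65 W alone for 1, which had a single count. In the order of the replicates, 63, 44, 65 and 73 members were detected at 12 W and 14, 50, 33 and 63 at 65 W. The number detected was thus lowest in the library with the fewest counts. The 25 highest members held 58.97% of all member counts, and 9 of these belong to complex IV, 8 to complex V, 4 to complex I and 4 to complex III. Another 14 annotated genes had no count, including Ndufs3, a core subunit of complex I. Among complex IV subunits with a liver and a muscle form, the liver forms Cox6a1, Cox7a2 and Cox8a had 92 counts, while the heart and muscle forms Cox6a2, Cox7a1 and Cox8b were without a count. In a pool of 84276 nuclear counts, 0 counts allow a share of up to 0.0356 per 1000.

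**Figure D1:**
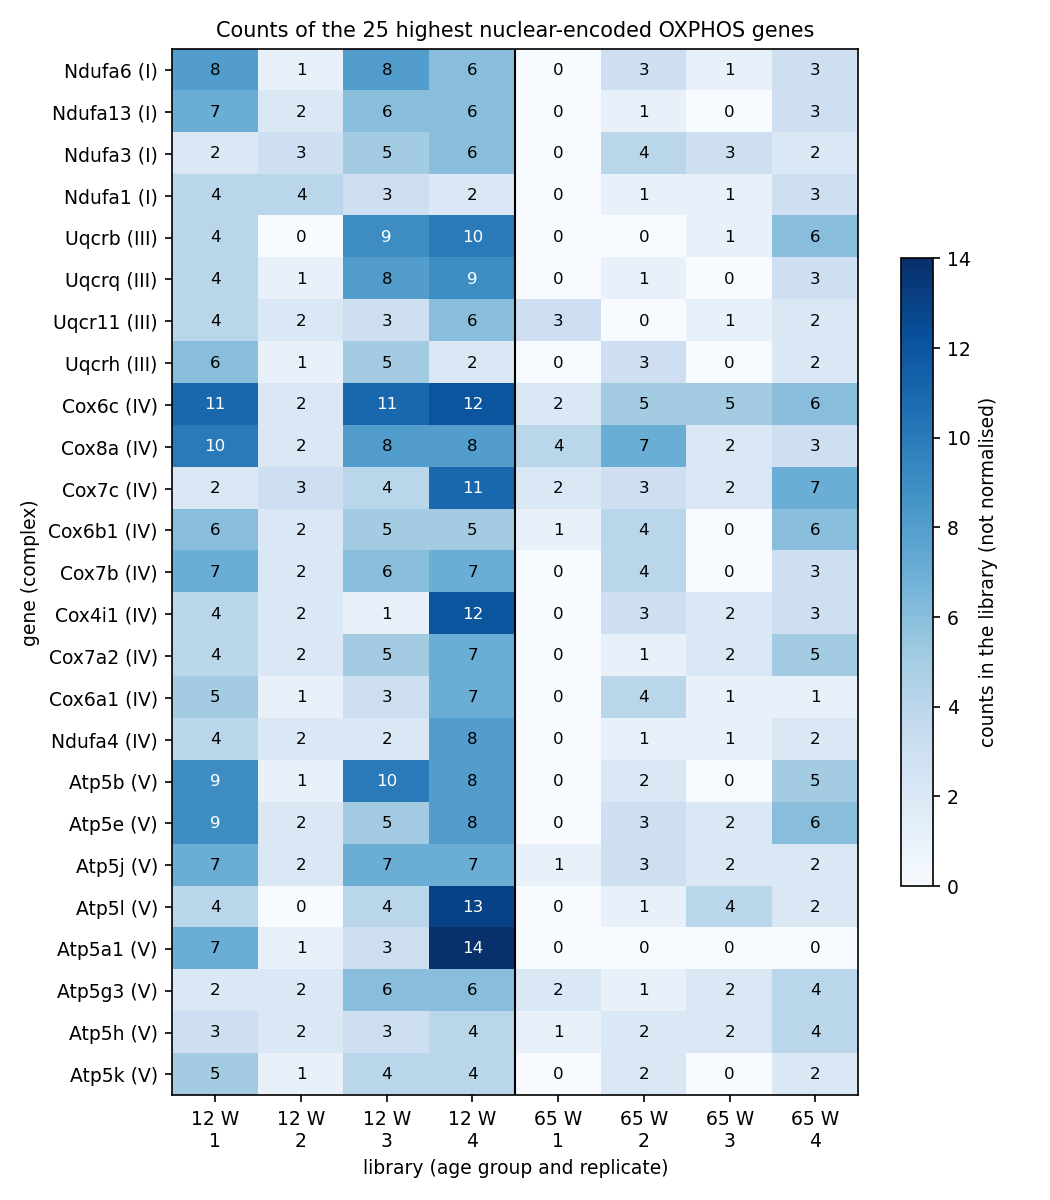
Counts of the 25 highest members (rows, with the complex in brackets) in each of the 8 libraries (columns), as deposited and without normalisation, with darker cells for higher counts. Cox6c, with 2 to 12 counts, and Cox8a, with 2 to 10, had counts in every library, and Atp5a1 had 14 counts in 12W-4 and 0 in each 65 W library.

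Complex IV, cytochrome c oxidase, transfers electrons to oxygen, and its members stood highest. Cox6c, a small membrane subunit, had 11, 2, 11 and 12 counts at 12 W and 2, 5, 5 and 6 at 65 W, 54 in all, the most of any member. Cox8a, the smallest subunit in its ubiquitous form, had 10, 2, 8 and 8 against 4, 7, 2 and 3. At 12 W both were lowest in 12W-2, the shallowest library of that age, and the counts of the age groups overlapped. Cox7c had 2, 3, 4 and 11 counts at 12 W and 2, 3, 2 and 7 at 65 W. Cox6b1, which joins the monomers of the enzyme on the intermembrane-space side, had 6, 2, 5 and 5 against 1, 4, 0 and 6. Cox4i1, the largest nuclear-encoded subunit, had 4, 2, 1 and 12 against 0, 3, 2 and 3, so that a single library, 12W-4, held most of its counts at 12 W. Cox7b had 29 counts, Cox7a2 26, Cox6a1 22 and Ndufa4, first assigned to complex I and now to complex IV, 20. Per gene, the median was 26 counts over the 13 complex IV members, 17.5 over the 16 of complex V, 11.5 over the 10 of complex III and cytochrome c, 11 over the 4 of complex II and 8 over the 35 of complex I. Per kilobase of transcript, the medians were 38.5, 23.3, 12.6, 5.71 and 9.63 counts per kb in the same order of complexes, so that complexes I and II change places. Each read gives 1 count here whatever the length of its transcript, and the values per kilobase divide by that length.

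Complex V, the ATP synthase, couples the proton gradient to ATP formation. Atp5b, the catalytic beta subunit of the head, had 9, 1, 10 and 8 counts at 12 W and 0, 2, 0 and 5 at 65 W. Atp5e, a small subunit of the central stalk, had 9, 2, 5 and 8 against 0, 3, 2 and 6. Both genes had 35 counts in all. Atp5j of the peripheral stalk had 7, 2, 7 and 7 counts against 1, 3, 2 and 2, and Atp5l, a subunit of the dimer interface, 4, 0, 4 and 13 against 0, 1, 4 and 2. Atp5g3, one of the genes for the c-ring, had 2, 2, 6 and 6 against 2, 1, 2 and 4. The 3 c-ring genes together had 0.513 ± 0.281 counts per 1000 nuclear counts at 12 W and 0.872 ± 0.317 at 65 W, and the 5 genes of the head with its central stalk 1.45 ± 0.552 against 0.951 ± 0.656 (SD, n = 4 each), with overlap in both cases. The Atp5g3 paralogs Atp5g1 and Atp5g2, which encode the same mature protein, had 10 and 11 counts in all. Atp5k, also at the dimer interface, had 18 counts.

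Complex I oxidises NADH, and its nuclear-encoded part consists of a catalytic core and of supernumerary subunits. The counts lay almost entirely on the latter. The 6 core genes on record, which carry the flavin and iron-sulfur centres, had 28 counts in all and at most 9 each, in Ndufv2, whereas the 29 supernumerary genes had 307. The median was 4.5 counts per core gene and 8 per supernumerary gene. Ndufa6, a supernumerary subunit on the matrix arm, had 8, 1, 8 and 6 counts at 12 W and 0, 3, 1 and 3 at 65 W. Ndufa13, also known as a cell death regulator, had 7, 2, 6 and 6 against 0, 1, 0 and 3, and the membrane subunits Ndufa3 and Ndufa1 had 25 and 18 counts.

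Complex III passes electrons from ubiquinol to cytochrome c. Its small subunits Uqcrb and Uqcrq, which bind next to cytochrome b, had 30 and 26 counts, and Uqcr11 and Uqcrh, the hinge protein, 21 and 19. Uqcrb had 4, 0, 9 and 10 counts at 12 W and 0, 0, 1 and 6 at 65 W. The 5 small subunits held 104 counts, the core proteins Uqcrc1 and Uqcrc2 14, and the redox subunits Cyc1 and Uqcrfs1 15. Cycs, cytochrome c itself, had 10. Complex II, which oxidises succinate, had 38 counts over its 4 genes. Sdhb, the iron-sulfur subunit, had 0, 1, 5 and 3 at 12 W and 1, 1, 0 and 2 at 65 W, and Sdhc, a membrane anchor that takes part in quinone binding, had 3, 1, 5 and 4 against 0 in each 65 W library. The 7 assembly factors that carry an Nduf or Sdh symbol had 11 counts, at most 2 each.

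The summed members were then related to the other nuclear counts and to the mitochondria-encoded mRNAs, to see whether the nuclear-encoded part of the system changed with age in this preparation. Per 1000 nuclear counts, the members had 13.4, 9.50, 14.2 and 15.0 counts at 12 W and 14.4, 16.3, 15.9 and 14.1 at 65 W. The means were 13.02 ± 2.44 (SD, n = 4) and 15.2 ± 1.08 (SD, n = 4), and the groups overlapped. The 95% Wilson interval of the lowest library, 12W-2, was 7.56 to 11.9, and that of 65W-1 was 9.53 to 21.7. These intervals cover counting error only, since the libraries were amplified by PCR and carry no molecular identifiers. The log2 ratio of the means was 0.22, and 0.10 without 12W-2. Per 1000 mitochondria-encoded mRNA counts, the members had 1.46, 0.870, 2.08 and 2.66 counts at 12 W and 2.25, 1.41, 3.13 and 1.85 at 65 W. The means were 1.77 ± 0.773 (SD, n = 4) and 2.16 ± 0.730 (SD, n = 4), a log2 ratio of 0.29, and the groups again overlapped. This ratio was 0.0056 for pooled counts and -0.12 without both shallow libraries, so it had no stable direction. In bulk material, a change in the amount of RNA per mitochondrion and a change in what the preparation retained cannot be told apart, nor can fewer cells of a type and less RNA per cell.

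**Figure D2:**
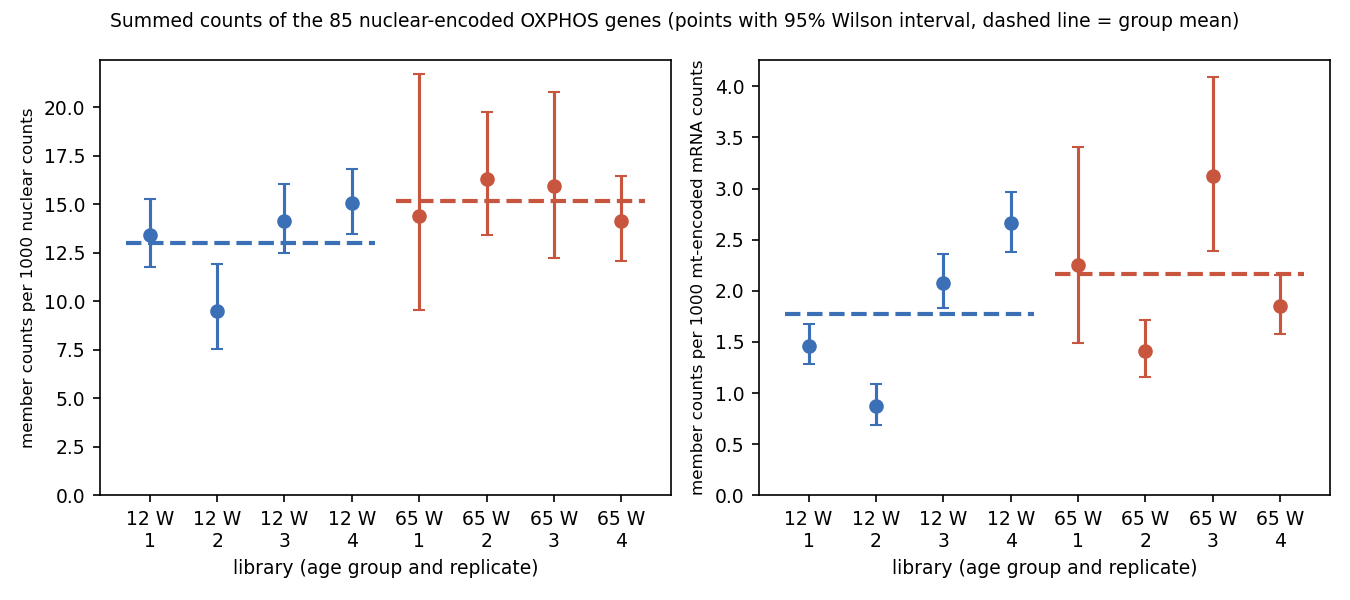
Summed counts of the 85 members per 1000 nuclear counts (left) and per 1000 mitochondria-encoded mRNA counts (right) in each library, with 95% Wilson intervals for counting error and dashed lines at the group means. On the left, 12W-2 at 9.50 lies lowest and the 65 W libraries lie between 14.1 and 16.3. On the right, both groups spread widely, the 12 W libraries over 0.870 to 2.66 and the 65 W libraries over 1.41 to 3.13.

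By complex, the age groups overlapped in each sum. Complex I had 4.20, 3.38, 3.41 and 4.25 counts per 1000 nuclear counts at 12 W and 1.31, 4.56, 4.81 and 4.20 at 65 W, with means of 3.81 ± 0.480 and 3.72 ± 1.63 (SD, n = 4 each). The low value of 65W-1 rests on 2 counts, and without this library the log2 ratio of complex I was 0.25 in place of -0.03. Complex III with cytochrome c had 1.59 ± 0.721 against 1.51 ± 0.501, complex V 3.61 ± 0.839 against 3.97 ± 1.14, and complex II 0.441 ± 0.137 against 0.397 ± 0.280 (SD, n = 4 each). Complex II had 0 counts in 65W-3, where a count of 0 allows a share of up to 0.903 per 1000 nuclear counts. Complex IV had 3.47, 2.73, 3.52 and 4.16 at 12 W and 6.55, 5.86, 4.51 and 3.66 at 65 W. Its means were 3.47 ± 0.582 and 5.15 ± 1.30 (SD, n = 4 each), a log2 ratio of 0.57. All 65 W libraries except 65W-4, the deepest of them, lay above the 12 W libraries, and 65W-4 lay within the 12 W range. The value of 65W-1 rests on 10 counts. With pooled counts the log2 ratio of complex IV was 0.34, and without both shallow libraries it was 0.46.

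**Figure D3:**
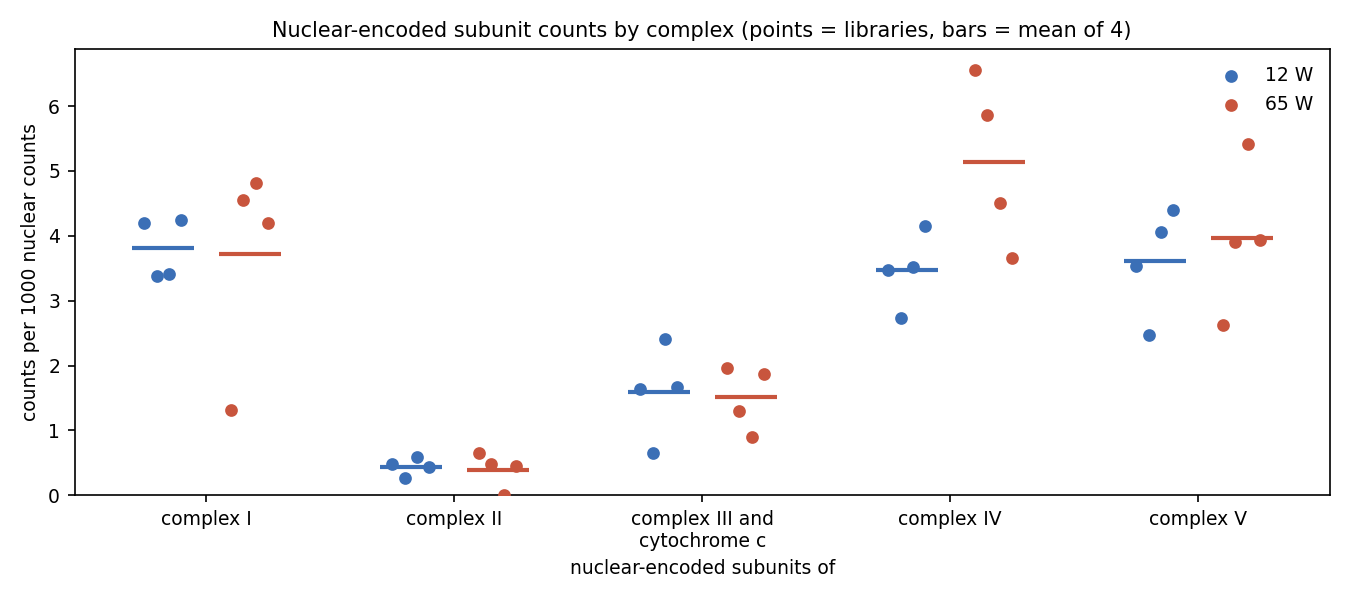
Counts of nuclear-encoded subunits per 1000 nuclear counts by complex. Points are libraries (12 W in blue, 65 W in red) and bars are means of 4. Complex IV reaches 6.55 at 65 W against a highest 12 W value of 4.16, with 1 of the 65 W libraries inside the 12 W range, and in the other complexes the groups lie over each other.

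The nuclear-encoded part of each complex was also set against its own mitochondria-encoded mRNAs. Complex I had 1.02 ± 0.397 nuclear-encoded counts per 1000 counts of the Nd mRNAs at 12 W and 1.01 ± 0.676 at 65 W. Complex III with cytochrome c had 1.81 ± 1.04 against 1.65 ± 0.528 per 1000 counts of Cytb, and complex V 3.36 ± 1.58 against 3.86 ± 2.04 per 1000 counts of Atp6 and Atp8 (SD, n = 4 each). For complex IV the ratio to Cox1, Cox2 and Cox3 was 1.54, 1.07, 2.49 and 2.98 at 12 W and 5.57, 2.63, 3.53 and 3.05 at 65 W. Its means were 2.02 ± 0.872 and 3.70 ± 1.30 (SD, n = 4 each), a log2 ratio of 0.87, and the groups overlapped through 65W-2, which lay below 12W-4. The log2 ratio was 0.72 with Cox2 and Cox3 alone as the reference, and 0.49 without both shallow libraries.

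Single genes were tested in a fit across all genes, in which 865 genes had at least 10 counts. The quasi-likelihood test of edgeR called 9 of them at an adjusted p threshold of 0.05, or 1.04%, and 0 of the 49 members tested. An unadjusted p under 0.05 in edgeR was found for 2 members, Atp5a1 and Sdhc, both lower at 65 W, against 84 of the 865 genes, or 9.71%, and 7.51% in that direction. DESeq2 and limma-voom also called 0 members, with 1 and 5 members at an unadjusted p under 0.05, against 36 and 85 of the 865 genes. Of the 5 in limma-voom, 4 were higher at 65 W, the opposite direction to the members found by edgeR. The median log2 fold change of 65 W over 12 W was -0.06 over the members tested, with values from -0.15 to 0.06 under the other scalings in edgeR, and -0.22 over all genes tested. The member median was 0.18 in DESeq2 and 0.32 in limma-voom, beside -0.15 and -0.01 over all genes. With a library left out it ran from -0.25 without 12W-3 to 0.14 without 12W-2, so its sign was not stable. Under the main scaling 25 of the 49 members lay below 0, or 51.0%, against 61.4% of all genes. The standard error of a member ranged from 0.50 to 1.57 on the log2 scale with a median of 0.85, so a difference of 2-fold could not be detected for most members at this depth. By complex, the median log2 fold change was -0.21 over 13 members of complex I, -0.23 over 6 of complex III and cytochrome c, 0.18 over 12 of complex IV and 0.08 over 16 of complex V. These values stand beside the median of -0.22 over all genes. In complex IV 8 of the 12 lay above 0, and 7 with TMM over nuclear genes or with the mitochondria-encoded mRNA counts as library size, with the highest value for Cox7c at 0.88 (SE 0.61; edgeR, adjusted p = 0.717). Cox6c had 0.46 (SE 0.50; edgeR, adjusted p = 0.837) and Cox8a 0.69 (SE 0.56; edgeR, adjusted p = 0.721).

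The groups did not overlap for 4 of the 49 members tested, against 66 of 865 genes, or 7.63%, so the members lay near the share of all genes. Of these Atp5a1, Sdhc and Ndufb2 were lower at 65 W, which is 3 of the 49 members against 6.94% of all genes, and Atp5h was higher. Atp5a1 encodes the alpha subunit of the ATP synthase head. It had 7, 1, 3 and 14 counts at 12 W and 0, 0, 0 and 0 at 65 W. At the 12 W share of nuclear counts 8.94 counts would stand at 65 W in all. Atp5a1 and Sdhc met the filter of 10 counts through the 12 W libraries alone. With a floor of 3 counts over the 65 W group, pooled counts set a limit on how much lower Atp5a1 was. It was 2.98-fold relative to nuclear counts and 3.26-fold relative to mitochondria-encoded mRNA counts. Such a limit takes the 12 W counts as exact and leaves out the spread between libraries, so it is a description and not a test. These limits rest on single libraries. Relative to nuclear counts the limit was 1.98-fold without 12W-4, which held 14 of the 25 counts, and 1.48-fold without 65W-4, the deepest 65 W library. Relative to mitochondria-encoded mRNA counts it was 1.92-fold without 12W-4, 2.00-fold without 65W-2 and 1.73-fold without 65W-4. Its adjusted p from edgeR was 0.0635, above the threshold, and the fitted log2 fold change depends on the prior count and gives no size. Over the alternatives the adjusted p ran from 0.0242 to 0.978. For Sdhc, with 13 counts at 12 W and 0 at 65 W, the same limit was 1.55-fold relative to nuclear counts (adjusted p = 0.210 from edgeR). Without 65W-4 the depth allowed no such limit for Sdhc. Ndufb2, a supernumerary subunit of complex I, had 2, 1, 3 and 3 counts against 0, 0, 0 and 1, with -1.56 as the fitted log2 difference (SE 1.18; edgeR, adjusted p = 0.721). Atp5h, a subunit of the peripheral stalk, had 3, 2, 3 and 4 counts against 1, 2, 2 and 4. The fitted log2 difference was 0.94 (SE 0.72; edgeR, adjusted p = 0.721). After TMM normalisation every 65 W library lay above every 12 W library. Relative to total counts without TMM, 65W-2 lay below 12W-4, so this separation depends on the scaling.

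**Figure D4:**
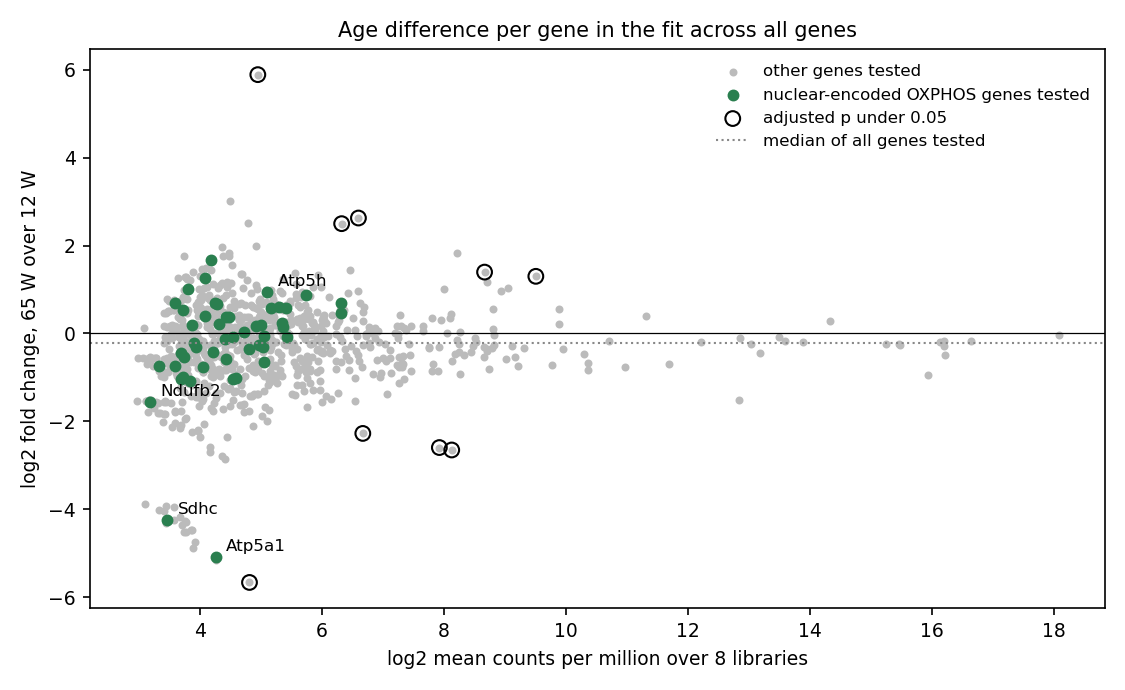
Log2 fold change of 65 W over 12 W against log2 mean normalised counts (CPM) for the 865 genes tested, with members in green, other genes in grey, circles at the genes with an adjusted p under 0.05 and the dotted line at the median of all genes. No member is circled, and Atp5a1 and Sdhc, which had 0 counts at 65 W, lie in the band of low genes far below the rest, where the fitted value depends on the prior count.

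Atp5a1 and Sdhc were counted on long transcripts, and the share of member counts on long transcripts differed between the age groups. The length limits were chosen after the values were seen. Transcripts over 1500 nt held 41, 8, 45 and 50 member counts at 12 W and 0, 6, 1 and 16 at 65 W. They made up 18.6, 11.0, 18.7 and 15.9% of member counts at 12 W and 0, 6.00, 1.89 and 10.1% at 65 W, with means of 16.04% ± 3.63 and 4.50% ± 4.51 (SD, n = 4 each), and the groups did not overlap. At this depth the separation is narrow, since 0 of 22 counts in 65W-1 allow a share of up to 13.6%, above the 11.0% of 12W-2, and 65W-4 with 16 of 158 counts lay just below 12W-2 with 8 of 73. The log2 ratio was -1.83, with -0.99 without both shallow libraries and -2.61 without 65W-4. Transcripts of up to 600 nt made up 39.2% ± 0.479 of member counts at 12 W and 53.6% ± 9.75 at 65 W (SD, n = 4 each), again without overlap. Among the other nuclear transcripts except Lars2, those over 1500 nt took 56.6% ± 0.953 at 12 W and 52.6% ± 0.387 at 65 W, also without overlap, and those of up to 600 nt 8.44% ± 0.513 and 8.73% ± 0.822 (SD, n = 4 each). In the class above, up to 1000 nt, the other nuclear transcripts had 14.3% ± 2.04 at 12 W and 19.2% ± 0.877 at 65 W without overlap, and the members 32.0% ± 4.26 and 31.4% ± 2.89 (SD, n = 4 each). A smaller share on long and a larger share on shorter transcripts at 65 W was thus found in both sets, in different classes of short transcripts. The member transcripts were short, with a count-weighted mean length of 910 nt against 2032 nt for the other nuclear transcripts. The long member counts lay on 20 genes, led by Atp5b with 27 against 2, Atp5a1 with 25 against 0, Uqcrq with 17 against 4, Sdhc with 13 against 0 and Uqcrc2, a core protein of complex III, with 11 against 2. Without Atp5a1 and Atp5b the long transcripts made up 10.5% ± 2.26 at 12 W and 4.00% ± 4.40 at 65 W (SD, n = 4 each), and the groups overlapped through 65W-4. RNA integrity was not among the values used here, and the part of read length in these shares was not tested.

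**Figure D5:**
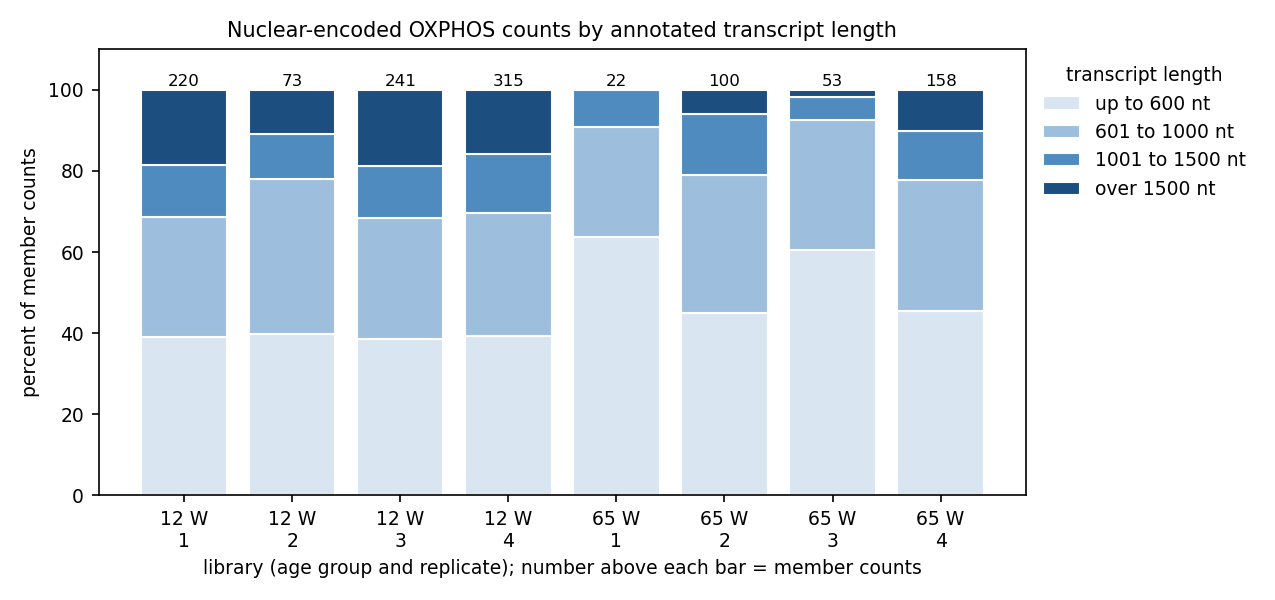
Percent of member counts on transcripts of each annotated length class in each library, with the number of member counts above each bar. The darkest segment, over 1500 nt, spans 11.0 to 18.7% at 12 W and 0 to 10.1% at 65 W, and the bars of 65W-1 and 65W-3 rest on 22 and 53 counts.

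Most member counts lay on coding transcripts. Of the 133 transcripts 111 are annotated as protein-coding, and the 22 others, which retain an intron, are targets of nonsense-mediated decay or have no coding sequence, held 46 counts. They made up 3.64, 4.11, 1.66 and 2.86% of member counts at 12 W and 9.09, 4.00, 9.43 and 6.96% at 65 W, with means of 3.07% ± 1.07 and 7.37% ± 2.50 (SD, n = 4 each). The groups overlapped through 65W-2, and the 65W-1 value rests on 2 counts. In other protein-coding genes the share was 4.68% ± 0.444 and 5.88% ± 1.47 (SD, n = 4 each). The single largest contribution at 65 W was a processed transcript of Atp5b with 5 counts in 65W-4, where the coding transcript of Atp5b had none.

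Some member counts are uncertain because of near-identical copies. Cox7c and its processed pseudogene Gm10012 are 99.4% identical over 315 nt. Gm10012 had 16, 3, 6 and 14 counts at 12 W and 0, 4, 0 and 5 at 65 W, 48 in all against 34 for Cox7c itself. Their sum was 18, 6, 10 and 25 at 12 W and 2, 7, 2 and 12 at 65 W, so the ratio of Cox7c between the age groups depends on how the counting divided these reads. With the copies added, the log2 ratio of complex IV per nuclear counts was 0.41 in place of 0.57. Copies of Atp5g2, Cycs, Ndufb4 and Uqcrb had 1 or 2 counts each. The strand of the counting is not given in the sources used here, and 8 members overlap a gene on the opposite strand that also had counts, among which Ndufs1 with 2 counts overlaps Eef1b2 with 32.

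Other gene lists were summed in the same way, most of them at lower counts per gene than the members. Mitochondrial ribosomal proteins had 172 counts over 65 genes, 2.04 ± 0.304 per 1000 nuclear counts at 12 W and 1.78 ± 0.849 at 65 W. Enzymes of the tricarboxylic acid cycle had 71 counts over 17 of 18 genes, with 0.900 ± 0.372 against 0.669 ± 0.537. Assembly factors outside the symbol rule had 51 counts over 21 of 40 genes. The import machinery had 371 counts over 21 of 25 genes, of which 245 lay on Timm22 of the carrier translocase. ATP synthase subunits and carrier partners under other symbols had 62 counts over 5 of 8 genes. Abundant secreted hepatocyte proteins, which are no mitochondrial proteins and were counted far more deeply, had 29659 counts over 64 of 66 genes, with 353 ± 23.4 against 318 ± 52.0 per 1000 nuclear counts. Their median log2 fold change was -0.27 over 61 tested. The edgeR fit called 3 of them, all higher at 65 W although the list median lay below 0, against 1.04% of all genes. Of the 61 tested, 20 had an unadjusted p under 0.05 in edgeR, against 84 of 865 genes, or 9.71%. The direction of these 20 is not given here. Cytosolic ribosomal proteins, with short and abundant mRNAs, had 33.1 ± 2.72 per 1000 nuclear counts at 12 W and 35.8 ± 6.51 at 65 W (SD, n = 4 each for all these values). In the fit across all genes 0 of 77 cytosolic ribosomal protein genes, 0 of 4 import genes and 0 of 3 partner genes had an adjusted p under 0.05 in edgeR. At an unadjusted p under 0.05 the numbers were 2, 0 and 0, against 9.71% of all genes. No tricarboxylic acid cycle enzyme reached 10 counts, and 1 mitochondrial ribosomal protein gene did.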

How the data were processed

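Total RNA from sucrose gradient-purified liver mitochondria was converted to barcoded PCR-cDNA libraries by the authors, 4 per age group, which were pooled and sequenced. The deposited values are raw counts per Ensembl transcript from the Epi2Me Labs workflow, with no normalization. The submitters' processing notes name minimap2, SAMtools, edgeR and the builds GRCm38 and mm10; the counting tool and strand setting are not given in the sources used here. Of 8688 transcripts, 8591 matched GENCODE M21 (the remaining 97 held 0.0946% of counts). Transcripts were summed per gene. Genes with at least 10 counts were fitted with edgeR 4.0.16 (R 4.3.3; TMM, quasi-likelihood test, Benjamini-Hochberg, threshold 0.05). TMM factors ran from 0.669 to 1.64 and were above 1 in both libraries under 50000 counts, 65W-1 (1.33) and 65W-3 (1.64). A factor above 1 enlarges the effective size of a library and so lowers its normalised values. With no scaling factor the median log2 fold change was -0.15 over all genes and 0.06 over the members. The median log2 fold change of all genes was below 0 under each scaling tried in edgeR, and fold changes of members are given beside it. Its size depended on the filter, the tool and single libraries. It was -0.06 with filterByExpr, -1.30 with no filter, -0.01 with limma-voom and -0.50 without 65W-4. DESeq2 1.42.0, limma 3.58.1, other scalings and filters, and leaving out libraries were alternatives. Copies were found with blastn 2.17.0, at 90% identity for members and 80% over 100 nt for rows resembling mitochondria-encoded transcripts. Sums over members are descriptions with no test. The members and lists were chosen with earlier results of these data known. Named were the 25 members with the most counts, the highest of each complex, and any member called or without overlap of the groups. Atp5g1, Atp5g2, Cyc1, Cycs, Ndufb4, Ndufs1, Ndufs5, Ndufv2, Uqcrc1, Uqcrc2, Uqcrfs1 and genes that are no members were chosen after their values were seen.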

Additional observations from a re-analysis of the deposited data

Results flagged for a closer look

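In 3 of 80 groups of 4 libraries tested over the sums and shares of the members, a single library lay far from the other 3. For independent values chance flags about 1 in 20 groups. These groups share counts and some rest on few, so that rate cannot be applied to them. In 65W-1, complex I made up 9.09% of member counts against 28.0 to 30.2% in the other 65 W libraries, and this share rests on 2 of 22 counts. In 12W-3, the catalytic subunits of complex II, Sdha and Sdhb, had 0.294 counts per 1000 nuclear counts against 0.122 to 0.143 in the other 12 W libraries. The 12W-3 value rests on 5 counts, all of Sdhb. In 12W-2, transcripts longer than 600 and up to 1000 nt made up 38.4% of member counts against 29.5 to 30.2% in the other 12 W libraries.

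A pair of transcripts outside the rule had counts above the 3 that a count of 0 allows. Gm10012, a processed pseudogene nearly identical to Cox7c, had 48 counts. Ndufb1-ps, annotated as a noncoding RNA although its symbol starts like that of a complex I subunit, had 29 counts.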

How the results depend on the processing

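Of 261 alternative values computed for 19 results, 250 kept the direction, the call or the size within the spread of the libraries. For the sums and shares only the size within that wide spread was asked, whatever the sign. Every alternative of a sum or share met this rule, also where the sign changed, so the 250 does not measure how stable they were. The 9 genes called over all genes became 4 with filterByExpr, 5 without a filter, 4 with transcripts in place of genes, 4 with limma-voom, and 2 to 13 with a library left out (2 without 65W-4, 13 without 12W-2); the cause was not tested. The 0 members called became 1, Atp5a1, with TMM over nuclear genes (adjusted p = 0.0458 from edgeR) and 0 to 1 with a library left out. These were the fits without 12W-2 (adjusted p = 0.0242 from edgeR) and without 12W-3 (adjusted p = 0.0428 from edgeR); the cause was not tested. filterByExpr left no member to test. With the replicate block, 0 members and 7 genes were called (smallest adjusted p of a member 0.145 from edgeR), and the numbers do not pair the libraries (correlations of the deviations of same-numbered libraries from -0.05 to 0.04). The scalings put the median of all genes between -0.32 (TMM over nuclear genes) and -0.15 (no scaling factor), and the median of the members between -0.15 and 0.06. Over all alternatives, the log2 ratio of complex IV per nuclear counts lay between 0.34 and 0.75, and its ratio to its own mitochondria-encoded mRNAs between 0.49 and 1.12. The log2 ratio of the share on transcripts over 1500 nt lay between -2.61 and -0.95, and moved to -0.99 without both shallow libraries. The module per nuclear counts lay between 0.10 and 0.37, and the sums of complexes I, II, III and V changed sign between alternatives. The limits for Atp5a1 and Sdhc without single libraries, denominators without Lars2, added copies, other length limits, the long share without Atp5a1 and Atp5b, complex IV mRNAs without Cox1 and all alternatives for the shares by length and isoform were chosen after seeing the data. Depth limits the 65 W group most, where 65W-1 had 22 member counts.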
